A study of Mus musculus with 10 samples.

Results

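The Rab GTPases of the AtT20 corticotroph transcriptome are described here. The members were all genes of the count table whose symbol is exactly Rab followed by a number and an optional letter, which gave 59 of 53801 genes. Proteins that bind or regulate Rabs are not members, and are described apart from them. Of the 59 members, 50 held enough counts to be tested between the lines, and 9 did not.

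Rab proteins are small GTPases, each of which marks a set of membranes inside the cell. In the GTP-bound state a Rab sits on its membrane through prenyl groups and recruits effectors that move, tether or fuse vesicles. Guanine nucleotide exchange factors (GEFs) load the GTP, GTPase-activating proteins (GAPs) end the active state, Rab escort proteins present new Rabs for prenylation, and GDP dissociation inhibitors (GDIs) take the inactive form off the membrane. In endocrine cells Rab3 and Rab27 are known for bringing dense-core granules, which hold peptide hormones, to the plasma membrane for release.

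AtT20 (AtT20/D16v-F2) is a mouse pituitary tumour line of corticotroph type. Stable lines had been made with lentivirus, one that expresses *Creb3l1*-shRNA1 and one, the control, that expresses a non-targeting shRNA, and 5 libraries were made from each, with no other treatment. *Creb3l1* codes for a transcription factor that is held in the endoplasmic reticulum membrane until it is cut free. Each hairpin was present in 1 line, so an effect of the knockdown and any other difference between the lines cannot be told apart. The replicates are biological ones by the study's methods. All 5 of a group came from the same stable line, so the P values measure the spread between libraries within a line.

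The libraries held 17420698 to 22205107 counts. *Creb3l1* fell from 3689 ± 148 normalised counts (counts scaled to a common library size, mean ± SD, n = 5) in the non-targeting line to 1090.0 ± 59.2 in the *Creb3l1*-shRNA1 line, a log2 fold change of -1.76 ± 0.04 (SE). Of the corticotroph markers, *Pomc*, *Tbx19*, *Pcsk1*, *Neurod1* and *Pitx1* were expressed in both lines, and *Crhr1* was low, at 29.2 and 26.9 normalised counts. The first 5 differed between the lines: *Pomc*, *Pcsk1* and *Tbx19* were lower in the *Creb3l1*-shRNA1 line (log2 fold changes -0.51, -0.46 and -0.27), while *Neurod1* and *Pitx1* were higher (0.62 and 0.36). The part of these marker differences in the Rab results was not tested. By quantitative PCR, the study reported less *Pcsk1* mRNA but unchanged *Pomc* mRNA after the knockdown, unlike the lower *Pomc* counts here. Of the markers of the other pituitary hormone cells, *Prl*, *Tshb*, *Fshb* and *Pou1f1* had no count in any library, *Gh* had at most 1 and *Lhb* at most 2. *Pax7* was low, with at most 21 counts, and was not tested. It held 14.5 ± 5.01 normalised counts in the non-targeting line and 5.90 ± 1.87 in the *Creb3l1*-shRNA1 line, without overlap. Non-targeting replicate 3 stood apart, since *Gm42418* made up 4.13% of its counts, while its share in the 9 others was 0.106% to 0.191%. Without this library *Rab11a* and *Rab2b* lost their call and 23 members were called. *Creb3l1*-shRNA1 replicate 2 also differed from its line. The chi-square per degree of freedom of its counts against the other libraries of that line was 6.52 to 11.3. Between those others it was 2.53 to 3.86. The same measure was far larger for non-targeting replicate 3, at 81.5 to 93.2 against its own line, where the other libraries gave 1.94 to 3.34. Without *Creb3l1*-shRNA1 replicate 2, *Rab11a* and *Rab27b* lost their call and 23 members were called. In bulk RNA a smaller number of cells of a kind and less RNA per cell cannot be told apart.

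The hairpins are shown because a guide strand can also act on other transcripts through its seed, which is bases 2 to 8 of the guide. The guides below are the reverse complement of the target sequences in the series' design text, written 5′ to 3′ as DNA, with the seed in capitals.
Creb3l1-shRNA1 guide: aTTGTTGAggaaatccgactc
non-targeting guide: aGTCCGTAcgcctaacatgat

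In the non-targeting line, the Rab genes differed widely in their level per length, given here as normalised counts per kilobase of exon. The length is that of all annotated exons of a gene, whether or not they are used in these cells. It is 12049 bases for *Rab3c*, 10679 for *Rab27b* and 2226 for *Rab3a*, so these levels depend on the annotation. The highest was *Rab7*, which directs traffic from late endosomes to lysosomes, at 2424 ± 69.8 (SD, n = 5). It was followed by *Rab2a*, which acts between the endoplasmic reticulum (ER) and the Golgi, at 2199 ± 24.8, and by the early endosome *Rab5c* at 2012 ± 31.7. The ER-to-Golgi pair *Rab1b* and *Rab1a* stood at 1462 ± 41.8 and 1234 ± 12.3, and the Golgi *Rab6a* at 1156 ± 25.6. These 6 genes carried 50% of the summed level per length of the 59 members in the non-targeting line and 48.9% in the *Creb3l1*-shRNA1 line. Of the granule Rabs, *Rab3a* stood at 621 ± 6.67, *Rab3d* at 503 ± 24.4 and *Rab27a* at 399 ± 9.23, while *Rab3c* at 44.9 ± 1.33, *Rab3b* at 18.9 ± 1.79 and *Rab27b* at 9.85 ± 1.27 were far lower. The lowest tested member was *Rab43*, at 3.16 ± 1.5. Of its 5526 exon bases, 4164 are shared on the same strand with *Gm45140*, which had at most 3 counts. How reads there were assigned was not given, so the level of *Rab43* may be understated.

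**Figure D1:**
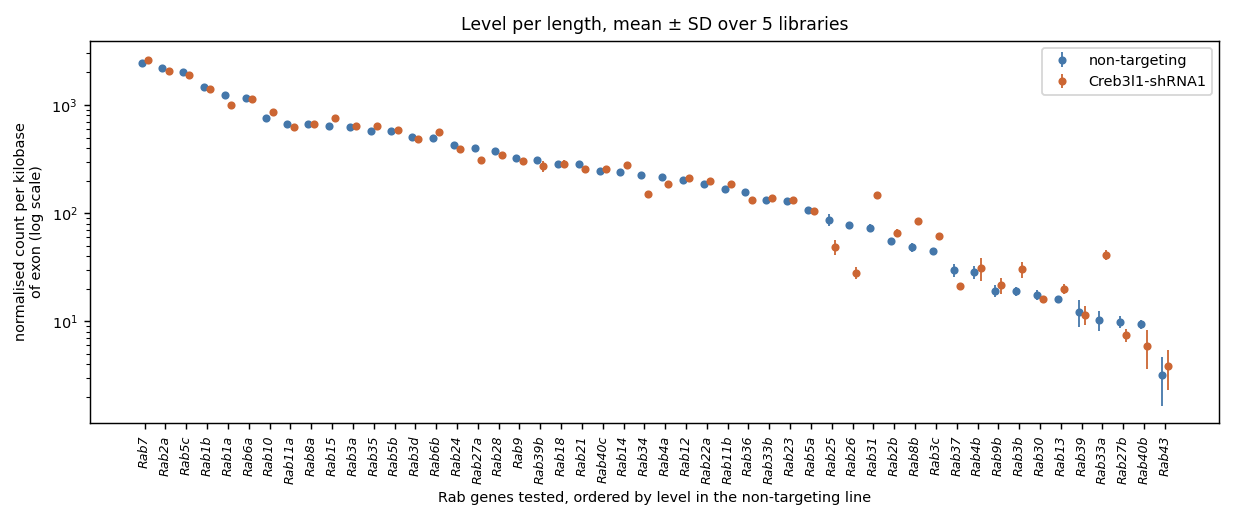
Level per length of the 50 Rab genes tested, on a log axis of normalised counts per kilobase of exon, ordered by the mean of the non-targeting line (points: means of 5 libraries; bars: SD). *Rab7*, *Rab2a* and *Rab5c* lead, with means of 2424, 2199 and 2012 in the non-targeting line. *Rab33a*, *Rab26* and *Rab31* stand out by the distance between the lines, with *Rab26* lower in the *Creb3l1*-shRNA1 line.

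Relative to the other genes, the Rab genes summed to almost the same level in both lines. Normalised counts do not give the amount of RNA per cell. The summed level per length was 20826.6 to 21111.5 per library in the non-targeting line and 20496.8 to 20883.7 in the *Creb3l1*-shRNA1 line. All 59 members together held 70655 to 71365 normalised counts per library in the non-targeting line and 70510.5 to 71981 in the *Creb3l1*-shRNA1 line, and these ranges overlapped. Within that total, single members moved in both directions: 13 were higher and 12 lower in the *Creb3l1*-shRNA1 line at an adjusted P under 0.01 (edgeR's quasi-likelihood test, Benjamini-Hochberg adjustment over the 14336 genes tested). The 25 called members made up 50% of the 50 tested, against 40.7% of all genes tested (26.0% higher against 20.6%, and 24.0% lower against 20.1%). The median log2 fold change of the tested members was 0.0066 and their median absolute log2 fold change 0.154, beside -0.0025 and 0.154 over all genes tested. The normalised counts of the lines did not overlap in 22 members, or 44.0%, against 36% of all genes tested.

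Most of the called differences were small. The median absolute log2 fold change of the 25 called members was 0.24, beside 0.275 over all called genes. At least 1.5-fold differences were found in 7 members, or 14.0% of those tested, against 7.73% of all genes tested. The 7 were *Rab33a*, *Rab31*, *Rab8b* and *Rab3b*, which were higher in the *Creb3l1*-shRNA1 line, and *Rab26*, *Rab25* and *Rab34*, which were lower. None of these 7 was among the 6 most abundant Rabs per length.

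**Figure D2:**
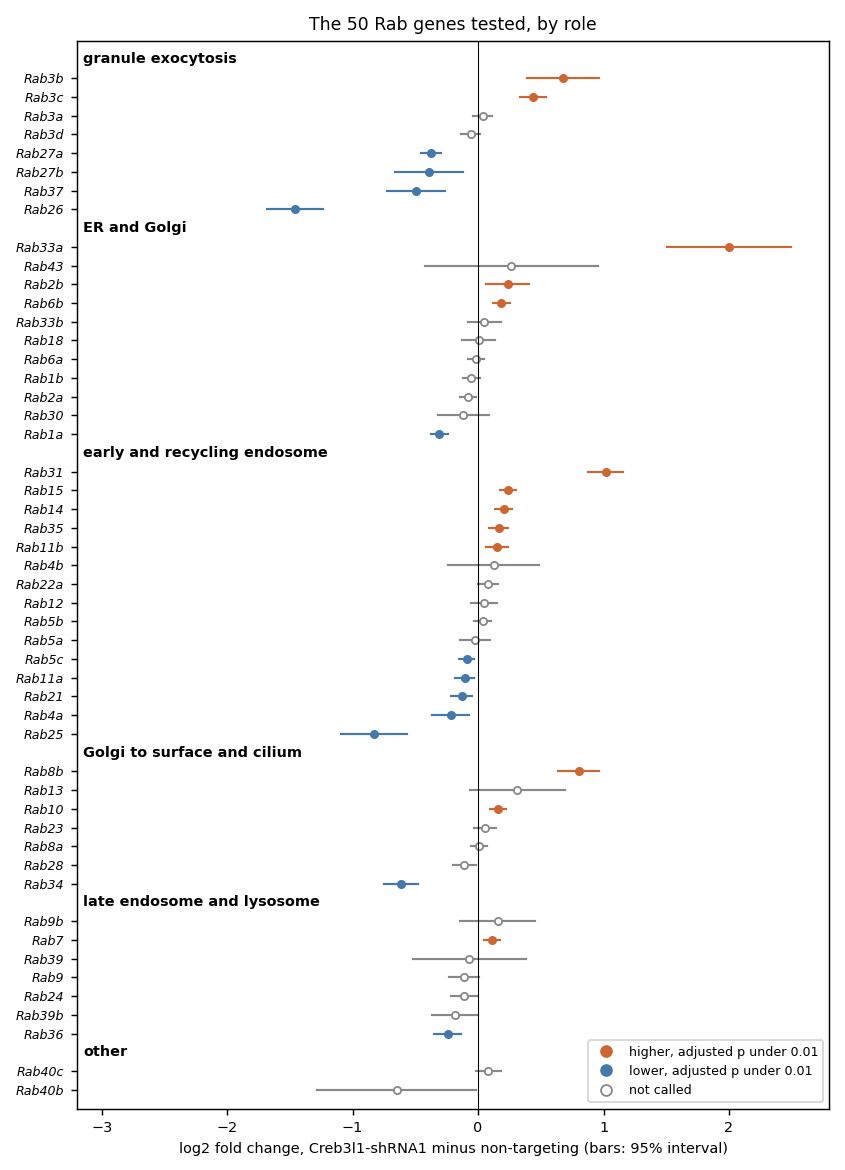
Log2 fold change (*Creb3l1*-shRNA1 minus non-targeting) of the 50 Rab genes tested, grouped by the membrane on which each is best known, with 95% intervals from the SE and 8 residual degrees of freedom. Filled points passed an adjusted P of 0.01; they run from -1.46 for *Rab26* to 2.00 for *Rab33a*, and 6 of the 8 granule exocytosis genes are filled.

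Of the 8 Rabs of granule exocytosis, 6 passed the test, beside the 40.7% called among all genes, and nothing is read from counts this small, here or in the other roles. *Rab3b* and *Rab3c* were higher in the *Creb3l1*-shRNA1 line, *Rab26*, *Rab37*, *Rab27a* and *Rab27b* were lower, and *Rab3a* and *Rab3d*, the most abundant members of the Rab3 family, did not pass. *Rab26*, which is linked to the maturation of secretory granules, changed most. Its normalised counts were 235, 232, 197, 226 and 209 in the non-targeting libraries and 76.3, 72.8, 93.6, 69.2 and 88.2 in the *Creb3l1*-shRNA1 libraries. Every *Creb3l1*-shRNA1 library lay below every non-targeting library, and the mean was 2.75-fold lower (log2 fold change -1.46 ± 0.10, adjusted P = 3e-16). The exons of *Rab26* share 267 bases on the same strand with *Traf7*, which did not pass the test (log2 fold change -0.05, adjusted P = 0.21).

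*Rab37*, found on secretory granules of mast cells and other secretory cells, held 161, 139.9, 136, 188 and 167 normalised counts in the non-targeting line and 103.8, 113, 121, 109.9 and 116 in the *Creb3l1*-shRNA1 line. The highest *Creb3l1*-shRNA1 library stayed below the lowest non-targeting one. The log2 fold change was -0.50 ± 0.10 (adjusted P = 5e-05).

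*Rab27a* docks granules at the plasma membrane. It held 1541, 1568, 1515, 1599 and 1517 normalised counts in the non-targeting libraries and 1234, 1189, 1224, 1157 and 1171 in the *Creb3l1*-shRNA1 libraries. The lines did not overlap, and *Rab27a* was 1.30-fold lower with the knockdown (log2 fold change -0.37 ± 0.03, adjusted P = 2.4e-12). Its relative *Rab27b*, which serves the same step, gave 106.6, 109.1, 84.4, 122 and 103.7 normalised counts in the non-targeting line and 95.6, 73.8, 66.0, 80.5 and 85.4 in the *Creb3l1*-shRNA1 line. Here the lowest non-targeting library, replicate 3, lay inside the range of the other line. The log2 fold change of *Rab27b* was -0.39 ± 0.12 (adjusted P = 0.0056), and the gene no longer passed in 6 of the 10 fits that left out 1 library: without non-targeting replicate 1, 2 or 4, or without *Creb3l1*-shRNA1 replicate 2, 3 or 4, where the log2 fold change lay between -0.46 and -0.33 over all 10.

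The 4 Rab3 genes, the main Rabs of regulated secretion, gave different fold changes. *Rab3a* held 1377, 1375, 1396, 1363 and 1398 normalised counts in the non-targeting line and 1419, 1404, 1445, 1416 and 1399 in the *Creb3l1*-shRNA1 line. Although the ranges of the lines did not overlap, the difference was small, with a log2 fold change of 0.04 ± 0.03 that did not pass (adjusted P = 0.38, 95% interval -0.04 to 0.11). With offsets for GC content and length, an alternative chosen after the data were seen, it was 0.14 and passed. *Rab3d* gave 2021, 2152, 1981, 2203 and 2192 and 1983, 2105, 2029, 2004 and 2018, the lines overlapped, and it did not pass either (-0.06 ± 0.03, adjusted P = 0.14).

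*Rab3c* held 562, 554, 535, 529 and 526 normalised counts in the non-targeting line and 774, 741, 724, 744 and 686 in the *Creb3l1*-shRNA1 line. All 5 libraries of the latter were higher (log2 fold change 0.44 ± 0.05, adjusted P = 8.8e-11). *Rab3b* was the scarcest of the family and rose most, from 67.4, 62.5, 69.7, 58.2 and 74.5 to 91.0, 124, 87.2, 126 and 102.7 (0.68 ± 0.13, adjusted P = 1.7e-05). The *Creb3l1*-shRNA1 libraries spread more widely here, with replicates 2 and 4 well above replicates 1 and 3, but none reached down to the control range. In level per length, *Rab3b* and *Rab3c* together were still minor: *Rab3b* took 1.59% of the Rab3 total in the non-targeting line and 2.49% in the *Creb3l1*-shRNA1 line, and *Rab3c* 3.78% and 5.03%. *Rab3a* took 52.3% and 52.6%, and *Rab3d* 42.3% and 39.9%. These shares depend on the annotated exon lengths. Before division by length, the means in the non-targeting line were 541 normalised counts for *Rab3c* and 1382 for *Rab3a*.

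**Figure D3:**
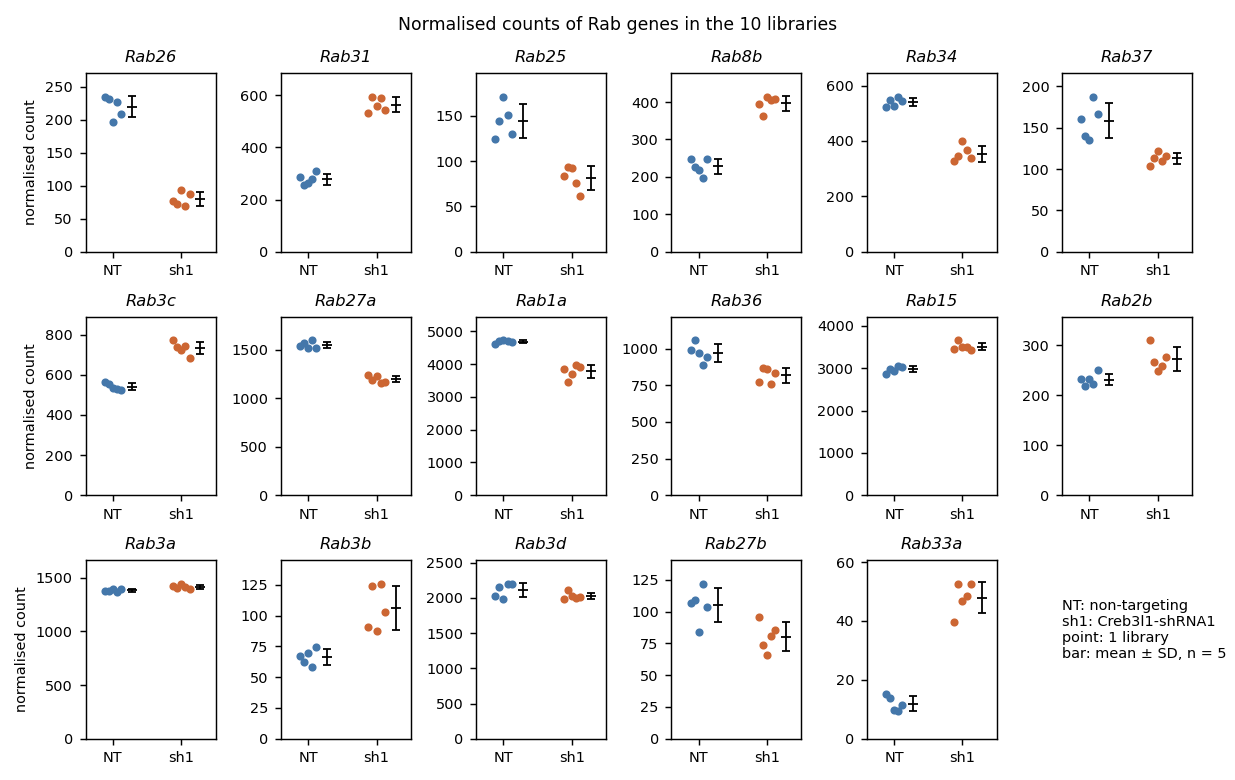
Normalised counts in each of the 10 libraries for the 12 called Rab genes of mean normalised count 100 or more that had the largest absolute log2 fold changes, for the other Rab3 and Rab27 genes, and for *Rab33a* (linear axes from 0; points: libraries; bars: mean ± SD, n = 5). The lines are apart in *Rab26*, *Rab31*, *Rab25*, *Rab8b*, *Rab34*, *Rab37*, *Rab3c*, *Rab27a*, *Rab1a*, *Rab36*, *Rab15*, *Rab3b* and *Rab33a*, apart by a small step in *Rab3a*, and overlap in *Rab2b*, *Rab27b* and *Rab3d*.

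The early and recycling endosome, the role with the most tested members, had 10 calls among 15 (66.7%, against 40.7% of all genes tested), split evenly into 5 higher and 5 lower. *Rab31*, which acts between the trans-Golgi network and endosomes, rose most. Its normalised counts were 288, 254, 262, 277 and 309 in the non-targeting line and 532, 595, 558, 591 and 544 in the *Creb3l1*-shRNA1 line. The lowest *Creb3l1*-shRNA1 library was well above the highest control, and the mean was 2.02-fold higher (log2 fold change 1.02 ± 0.06, adjusted P = 1.3e-17). *Rab25*, a Rab11 relative best known from epithelia, went the other way, from 125, 144, 171, 151 and 130.1 to 83.6, 93.1, 92.5, 75.8 and 61.8. The lines did not overlap (log2 fold change -0.83 ± 0.11, adjusted P = 7.4e-08).

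*Rab15*, a neural Rab of sorting endosomes, was abundant and moved little but evenly. It held 2863, 2990.4, 2946, 3054 and 3032 normalised counts in the non-targeting line and 3454, 3667, 3495, 3502 and 3437 in the *Creb3l1*-shRNA1 line, so that all 5 libraries of the latter were higher (0.24 ± 0.03, adjusted P = 1.8e-09). The other higher members were *Rab14*, between Golgi and endosomes (0.20), *Rab35*, of recycling to the plasma membrane (0.16), and *Rab11b*, of recycling endosomes (0.15). The other lower members were the fast-recycling *Rab4a* (log2 fold change -0.22), *Rab21*, which traffics integrins (-0.13), *Rab11a* (-0.11), and the early endosome *Rab5c* (-0.09). *Rab11a* and *Rab11b* were called in opposite directions, but with the offsets for GC content and length *Rab11b* gave 0.08 and lost its call (adjusted P = 0.052), while *Rab11a* gave -0.12 (adjusted P = 0.0013).

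Some of these small differences rested on few libraries. *Rab4a*, *Rab11a* and *Rab5c* each dropped out of the calls in 4 of the 10 leave-one-out fits. For *Rab4a* these were non-targeting replicates 4 and 5 and *Creb3l1*-shRNA1 replicates 3 and 5, for *Rab11a* non-targeting replicates 2 and 3 and *Creb3l1*-shRNA1 replicates 2 and 3, and for *Rab5c* non-targeting replicates 2 and 5 and *Creb3l1*-shRNA1 replicates 3 and 4. *Rab21* lost its call without *Creb3l1*-shRNA1 replicate 3. Without that library 7 of the 12 lower calls remained. *Rab5c* and *Rab11a* also lost their call when the libraries were scaled by their totals alone. With the offsets *Rab5c* gave a log2 fold change of -0.0039 (adjusted P = 0.91) and *Rab4a* one of -0.11 (adjusted P = 0.13), and neither was called. In *Rab21* and *Rab5c* the libraries of the lines overlapped. The 5 endosomal genes that did not pass were *Rab22a*, *Rab12*, *Rab5a*, *Rab5b* and *Rab4b*, with log2 fold changes of -0.03 to 0.12.

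Among the ER and Golgi Rabs, 4 of the 11 tested passed. *Rab1a*, which with *Rab1b* is needed for transport from the ER to the Golgi, was lower. It held 4611, 4699, 4737, 4704 and 4686 normalised counts in the non-targeting libraries and 3839, 3469.8, 3716, 3981 and 3922 in the *Creb3l1*-shRNA1 libraries. The control libraries lay close together and all above the other line, with a 1.24-fold difference (-0.31 ± 0.03, adjusted P = 1.2e-11). *Rab1b* did not pass (-0.05 ± 0.03, adjusted P = 0.12).

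*Rab33a*, a relative of the Golgi *Rab33b*, had the largest log2 fold change of all members, at a low level. It fell outside the abundance limit for genes described by library, and its values are given because they were the most extreme. The non-targeting libraries held 15.1, 13.8, 9.78, 9.39 and 11.3 normalised counts and the *Creb3l1*-shRNA1 libraries 39.5, 52.4, 46.8, 48.3 and 52.7. Every *Creb3l1*-shRNA1 library was above every control, 4.0-fold by the means (log2 fold change 2.00 ± 0.22, adjusted P = 2.4e-10), yet the level per length reached only 41.4 ± 4.64 normalised counts per kilobase, against 137 ± 7.78 for *Rab33b* in the same line. *Rab33a* was not tested where at least 10 counts were asked of every library.

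*Rab6b*, the Golgi Rab6 of neurons, was higher, with a log2 fold change of 0.19 ± 0.03, from 2455 to 2539.7 to 2776 to 2915 normalised counts without overlap. *Rab2b*, which acts between ER and Golgi, gave 232, 219, 232, 223 and 249.9 normalised counts in the non-targeting line and 311, 266, 249, 259 and 276 in the *Creb3l1*-shRNA1 line. The lines met at their edges, since *Creb3l1*-shRNA1 replicate 3 lay just below non-targeting replicate 5. Its log2 fold change of 0.24 ± 0.08 passed narrowly (adjusted P = 0.0085) and not with DESeq2, without a filter on low counts, or in 6 of the 10 fits that left out 1 library (each of non-targeting replicates 1 to 4 and of *Creb3l1*-shRNA1 replicates 1 and 5). The ER and Golgi genes that did not pass were *Rab1b*, *Rab2a*, *Rab6a*, *Rab18*, *Rab30*, *Rab33b* and *Rab43*, with log2 fold changes from -0.12 to 0.27. With the offsets *Rab30* gave -0.29 (adjusted P = 0.0066) and *Rab18* went from 0.01 to -0.11 (adjusted P = 0.0033), and both passed. *Rab2a* passed with the replicate block and without *Creb3l1*-shRNA1 replicate 4 or 5.

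Of the 7 Rabs that act between the Golgi and the cell surface or at the cilium, 3 passed. *Rab8b*, a Rab of vesicles bound for the plasma membrane, held 248, 226, 219, 198 and 248 normalised counts in the non-targeting line and 395, 363, 415, 405 and 408 in the *Creb3l1*-shRNA1 line. The lines were clearly apart, by 1.74-fold (0.80 ± 0.07, adjusted P = 1.2e-12). Its more abundant partner *Rab8a*, by contrast, gave a log2 fold change of 0.01 ± 0.03 (adjusted P = 0.85, 95% interval -0.06 to 0.07). *Rab34*, which is needed for cilium formation and placed at the Golgi, was lower, from 524, 547, 527, 561 and 545 to 326, 345, 399, 366 and 337. All 5 *Creb3l1*-shRNA1 libraries lay below the control range (1.53-fold, -0.61 ± 0.06, adjusted P = 1e-11). *Rab10*, of exocytic vesicles, was higher by 0.16, at 2632 to 2799.7 against 2925 to 3020.0 normalised counts. *Rab13*, *Rab23*, *Rab28* and *Rab8a* did not pass, though *Rab28* did with the replicate block, without a filter on low counts and without non-targeting replicate 5.

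The late endosome and lysosome group had 2 calls among 7 tested genes. *Rab36*, a close relative of *Rab34*, held 992, 1059, 969, 886 and 940.1 normalised counts in the non-targeting libraries and 773, 867, 863, 758 and 833 in the *Creb3l1*-shRNA1 libraries. The highest library of the latter lay just below the lowest control (-0.24 ± 0.05, adjusted P = 2.9e-05). *Rab7*, the most abundant member, was higher by 0.11 ± 0.03 (adjusted P = 0.0011), with an overlap between 6058 to 6547 and 6533 to 7064 normalised counts. Its exons share 204 bases with the antisense gene *Gm5577*, which was also higher (log2 fold change 0.54, adjusted P = 0.00055). *Rab9*, *Rab9b*, *Rab24*, *Rab39* and *Rab39b* did not pass. *Rab39b* gave -0.18 ± 0.08 (adjusted P = 0.079), and its *Creb3l1*-shRNA1 libraries spread from 793 to 1069.6 normalised counts beside a control range of 1011 to 1169. It passed with the offsets (-0.22, adjusted P = 0.00011) and without *Creb3l1*-shRNA1 replicate 5.

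The Rab40 genes, which carry a domain for ubiquitin ligase assembly, did not pass, but *Rab40c* did with the offsets, where its log2 fold change of 0.08 became 0.14 (adjusted P = 0.0043). *Rab40b* had the largest fold change of the 25 tested members that were not called, -0.65 ± 0.27 (adjusted P = 0.045), at a mean of 18.9 normalised counts in the non-targeting line and 11.9 in the *Creb3l1*-shRNA1 line. *Creb3l1*-shRNA1 replicate 5 stood inside the control range and the other 4 below it, and without that library *Rab40b* passed. Over those 25 members the log2 fold changes ran from -0.65 to 0.31. The lines did not overlap in 2 of them, *Rab3a* and *Rab22a*.

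The 9 members without a test had almost no counts, which limits what can be said to detection. *Rab17*, an epithelial Rab, reached 7 counts in a library, *Rab44* reached 6 and *Rab7b* 4. *Rab19*, *Rab20*, *Rab29* and *Rab32* reached 1, and *Rab38* and *Rab42* had none in any of the 10 libraries, where a count of 0 allows up to 3 counts in a library by counting error alone. *Rab32*, *Rab38* and *Rab29* are Rabs of melanosomes, lysosome-related organelles and the lysosome. None of the 8 Rabs of granule exocytosis was among the 9.

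Where 2 tested members share a number, the ratio of their counts within a library does not depend on the scaling of the library, and the change of that ratio between the lines does not depend on the gene lengths. There were 20 such pairs in 13 families of 29 members. The ratio differed between the lines in 11 of 20 pairs (two-sided exact permutation test of the mean log2 ratio, adjusted over the 20 pairs, threshold 0.05). In each of these 11 pairs the libraries of the lines did not overlap, and each had the smallest P that 5 against 5 libraries allow, 0.0079, or 0.014 adjusted. The pairs are not independent, since the Rab3 and Rab5 genes enter several. Ratios were not computed for pairs of other genes, so 11 of 20 has no share to be set beside it. That count is not read as a trait of Rab families. Among single genes, 40.7% of all those tested were called and the lines did not overlap in 36%.

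The largest shift was between *Rab33a* and *Rab33b*, whose log2 ratio went from -5.27 ± 0.37 (SD, n = 5) in the non-targeting line to -3.33 ± 0.14 in the *Creb3l1*-shRNA1 line, a difference of 1.94 ± 0.18 (SE). In level per length this took *Rab33a* from 7.16% to 23.2% of the Rab33 pair. *Rab8a* against *Rab8b* fell by 0.80 on the log2 scale, from 3.77 ± 0.16 to 2.98 ± 0.06, and *Rab8b* rose from 6.75% to 11.2% of the pair. Within the Rab3 family, the ratio of *Rab3a* to *Rab3b* fell by 0.63, that of *Rab3a* to *Rab3c* fell by 0.40, and those of *Rab3b* and *Rab3c* to *Rab3d* rose by 0.72 and 0.49. The ratio of *Rab3b* to *Rab3c* gave 0.22 ± 0.13 (exact permutation P = 0.13, adjusted 0.16), and that of *Rab3a* to *Rab3d* gave 0.09 ± 0.04 (exact permutation P = 0.063, adjusted 0.098), and neither passed.

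The remaining pairs that passed moved by less. The ratio of *Rab2a* to *Rab2b* fell by 0.31, that of *Rab11a* to *Rab11b* fell by 0.26, that of *Rab1a* to *Rab1b* fell by 0.26 and that of *Rab6a* to *Rab6b* fell by 0.20, while that of *Rab5b* to *Rab5c* rose by 0.13. In the Rab2, Rab6, Rab8, Rab11 and Rab33 pairs the member that was less abundant per length gained on the other, and in the Rab1 pair it lost. *Rab27a* and *Rab27b*, both of which were lower in the *Creb3l1*-shRNA1 line, gave no detectable shift in their ratio, with a difference of 0.02 ± 0.12 (SE; exact permutation P = 0.91, adjusted 0.91), and *Rab27a* took 97.6% of the pair in both lines. Rab4, *Rab9*, *Rab39* and Rab40 pairs and the 2 Rab5 pairs with *Rab5a* did not pass.

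**Figure D4:**
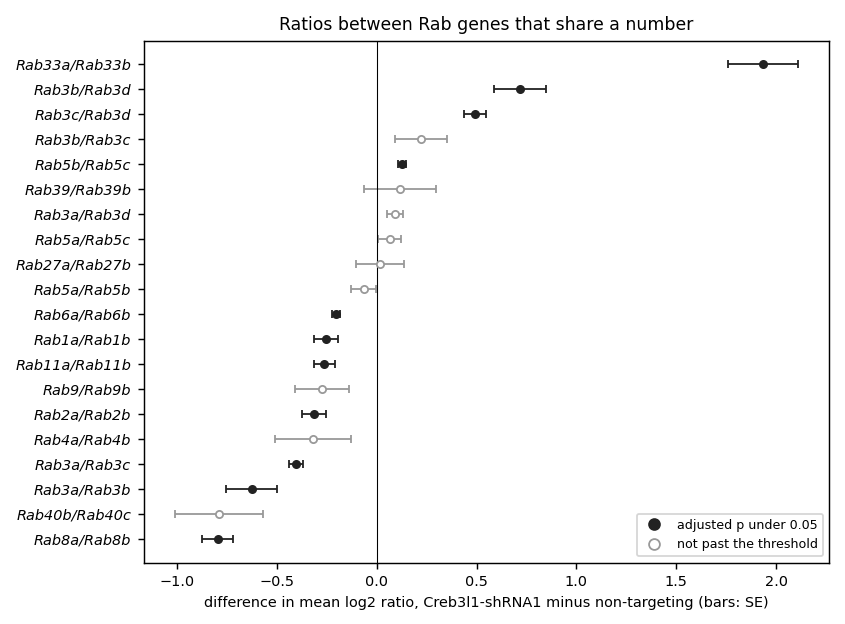
Difference between the lines in the mean log2 ratio of normalised counts for the 20 pairs of tested Rab genes that share a number (points: *Creb3l1*-shRNA1 minus non-targeting; bars: SE). Filled points passed the exact permutation test after adjustment; 11 are filled, from -0.80 for *Rab8a*/*Rab8b* to 1.94 for *Rab33a*/*Rab33b*, and *Rab27a*/*Rab27b* lies at 0.02.

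The genes that regulate Rabs or act for them were read from a list made by role, of which 97 were tested and 7 were too low to test. In that list 42 genes passed, 43.3% against 40.7% of all genes tested: 29 were higher in the *Creb3l1*-shRNA1 line (29.9%, against 20.6% of all genes) and 13 lower (13.4%, against 20.1%). At least 1.5-fold differences were found in 11 of the 97, beside 7.73% of all genes. By role, 14 of 30 GEFs passed (11 higher, 3 lower), 11 of 27 GAPs (8 higher, 3 lower), 9 of 23 effectors other than those of Rab3 and Rab27 (6 higher, 3 lower), and 1 of 8 genes of prenylation and GDP dissociation.

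The largest difference among abundant genes of the list was in *Mical1*, a Rab effector that oxidises actin. It rose from 441 ± 6.09 to 1164 ± 44.4 normalised counts (SD, n = 5; log2 fold change 1.40 ± 0.04). *Rin3*, a GEF for Rab5 and its relatives, rose by 0.95 ± 0.06, *Dennd2a*, of the DENN family of GEFs, by 0.70 ± 0.05, and *Tbc1d8*, of the TBC family of GAPs, by 0.65 ± 0.05. *Sh3bp5*, a GEF for Rab11, was lower, from 252.4 ± 17.3 to 153 ± 10.4 normalised counts (-0.72 ± 0.08). *Sytl2*, an effector of Rab27, was lower as well, from 1070.0 ± 49.9 to 538 ± 48.8 (-0.99 ± 0.05). All 6 had adjusted P values of 6.6e-10 or less, and the lines did not overlap in any of them.

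Among genes that serve many Rabs, *Gdi2*, which codes for a GDI, gave a log2 fold change of 0.07 ± 0.03 and did not pass (adjusted P = 0.014), but passed with DESeq2, with the replicate block and without *Creb3l1*-shRNA1 replicate 2. With the offsets it gave 0.02 (adjusted P = 0.57). The escort protein gene *Chm* gave 0.03 ± 0.10 (adjusted P = 0.84), while its relative *Chml* was lower (log2 fold change -0.28 ± 0.05, adjusted P = 3.2e-06). *Madd*, the GEF of Rab3 and Rab27, gave 0.03 ± 0.03 (adjusted P = 0.38). The direction of *Chm* and *Madd* turned under other settings, and neither passed in any of them.

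The effectors of Rab3 and Rab27 were described in full after their values were seen. Of 13, 9 were tested and 7 passed, beside the 40.7% of all genes, and since they were picked out afterwards nothing is read from that count. *Rph3al* (Noc2) rose by 0.64, *Myrip* by 0.47, *Sytl4* (granuphilin) by 0.43 and *Rims2* by 0.28 on the log2 scale. *Exph5*, *Sytl2* and *Sytl1* were lower, with log2 fold changes of -1.20, -0.99 and -0.65. In level per length, the most abundant of these 7 in the non-targeting line was *Sytl4*, at 272 ± 9.73 normalised counts per kilobase, then *Sytl1* at 159.9 ± 8.82, *Rims2* at 159 ± 5.59 and *Myrip* at 82.9 ± 3.74. *Sytl3* and *Unc13d* did not pass, and *Mlph*, *Rims1*, *Rph3a* and *Sytl5* were too low to test.

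**Figure D5:**
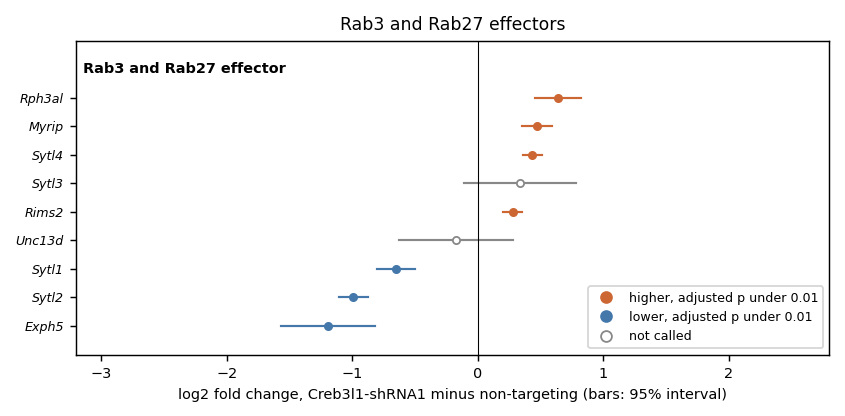
Log2 fold change (*Creb3l1*-shRNA1 minus non-targeting) with 95% intervals for the 9 tested effectors of Rab3 and Rab27. Filled points passed an adjusted P of 0.01: 4 effectors lie to the right of 0 and 3 to the left, down to -1.20 for *Exph5*.

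The promoters of the members were searched for GACGTG, a word found within sites known for factors of the CREB3 family, and for CACGTG, the core of the G-box and a form of the E-box. Both strands were read in RefSeq windows of 250 bases before to 50 after the start site (GRCm38.p6), and no match of one word overlapped a match of the other. Windows were found for 48 of the 59 members, and for *Rab26*, *Rab27b*, *Rab36*, *Rab37* and *Rab4a* among the called ones there was none. The 48 members had 60 windows, since some have more than 1 start site. GACGTG was present in 4 of the 60, or 6.67%, against 6.38% of all 32851 promoter windows, each in a different member. *Rab31* was the one called member among them, with the word inside the transcribed part, 26 bases after the start. The windows are shown with the word in capitals, for *Rab31* and for the 3 members that carry it and were not called.
*Rab31* chr17:65772710-65772739 minus strand, GRCm38.p6: caggctagactaGACGTGacgggaggagcc
*Rab24* chr13:55322108-55322137 minus strand, GRCm38.p6: gggggtggggggGACGTGgctaggcgcacg
*Rab40c* chr17:25919816-25919845 minus strand, GRCm38.p6: cttgtgtggggcGACGTGggggcggggcga
*Rab33b* chr3:51483997-51484015 plus strand, GRCm38.p6: tcgggaacctcgGACGTGg
Beside the log2 fold change of 1.02 of *Rab31*, those of *Rab24*, *Rab40c* and *Rab33b* were -0.11, 0.08 and 0.05. CACGTG was present in 6 of the 60 windows, or 10%, against 7.15% of all windows, in the members *Rab5a*, *Rab20*, *Rab21*, *Rab23*, *Rab24* and *Rab27a*. Of these, *Rab21* and *Rab27a* were called, both lower, and their windows are shown.
*Rab21* chr10:115315604-115315633 minus strand, GRCm38.p6: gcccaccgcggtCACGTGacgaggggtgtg
*Rab27a* chr9:73063898-73063919 plus strand, GRCm38.p6: cttgCACGTGctcctccgtctg
In *Rab27a* the word lies 246 bases before a start site inside the gene. The window at the 5′ end of the gene (chr9:73044560-73044859) does not hold it. A match is a description of the sequence and not evidence of binding.

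The 3′ UTRs of the members were searched for the complement of each guide's seed, with the longest annotated 3′ UTR of each gene (GENCODE release M21). The word for *Creb3l1*-shRNA1, TCAACAA, was found in 5 of 59 members, or 8.47%, against 10.1% of 21101 protein-coding genes. Among these were *Rab3b* and *Rab11b*, which were higher in the *Creb3l1*-shRNA1 line, with the word shown in capitals.
Rab3b chr4:108942149-108942171 plus strand, GRCm38: gtgttagtTCAACAAtttacatt
Rab11b chr17:33745341-33745363 minus strand, GRCm38: ctgtaatgTCAACAAtccttcgg
The other 3 were *Rab39b* and *Rab4b*, which did not pass in the main fit, and *Rab38*, which had no counts. *Rab39b* held the word at positions 869 and 1957 of its 3′ UTR. Its log2 fold change was -0.18, and that of *Rab4b* was 0.12. As given above, *Rab39b* was called lower in some alternative fits, among them the one that offset GC content and length (-0.22, adjusted P = 0.00011). None of the 12 members called lower in the main fit held this word. Whether the seed acted on any member was not tested. The word for the non-targeting guide, TACGGAC, was found in none of the 59 members and in 0.981% of all genes.

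Some members overlap other genes, and the strand setting used for counting was not given in the sources used here. The exons of *Rab24* share 1258 antisense bases with *Prelid1*, those of *Rab6a* 708 with *Mrpl48* and those of *Rab10* 143 with *Rab10os*. Those of *Rab2b* share 195 with *Tox4* and 2469 with *Gm43766*, so reads at these places may have been shared. *Prelid1*, *Tox4* and *Rab10os* did not pass the test (log2 fold change 0.08, 0.03 and 0.08), and *Mrpl48* was lower (-0.24). On the same strand, *Rab43* shares 4164 exon bases with *Gm45140*, and *Rab4b* shares 1280 with *Gm21983*. Reads there could be lost or shared under any strand setting, which bears on the levels of both members and on the Rab4 ratio. How reads that match more than 1 related Rab gene were treated was likewise not given.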

How the data were processed

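The authors selected poly(A) RNA with a stranded mRNA kit, sequenced it in pairs, and, after trimming, used STAR for alignment to GRCm38 and featureCounts with Ensembl gene models for counting. The authors deposited whole-number counts per gene and library, without normalisation. Lines and replicate numbers came from the sample labels. Symbols were paired with 53620 of 53801 identifiers, and gene lengths are exon unions of GENCODE release M21.

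The analysis used edgeR 4.0.16 and limma 3.58.1 under R 4.3.3, DESeq2 1.42.0 as an alternative, and scipy 1.17.1 under Python 3.11.15. Genes were kept by filterByExpr and scaled by TMM, and the lines were compared without covariates by the robust quasi-likelihood test at an adjusted P under 0.01. The fit was also run on simulated counts with the same dispersion for all genes, which does not measure the rate of false calls in these data. SEs come from the log2 fold change and its F statistic. Ratios used a pseudocount of 0.5. Counting error at 17420698 to 22205107 counts per library is included in the test.

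The members and lists were chosen with earlier results of these data known. All called members are named. Values by library are given for the 12 called members with the largest absolute log2 fold changes at a mean normalised count of 100 or more, and for Rab3 and Rab27 genes. Of the list of Rab regulators and effectors, the 6 largest by the same rule are named, with *Gdi2*, *Chm*, *Chml* and *Madd*; 1 further gene of that rule is not reported here. Same-numbered replicates of the lines deviated with correlations of -0.13 to 0.13, so the numbers were not taken to pair libraries. Alternatives were DESeq2, other scaling and filters, thresholds, a replicate block, each library left out, and offsets for GC content and length, the last added after seeing the data.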

Additional observations from a re-analysis of the deposited data

Results flagged for a closer look

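In 100 groups of 5 libraries (50 tested members in each line) the highest or lowest library was compared with the rest by Dixon's ratio, and 6 stood out, where chance gives about 1 in 20. *Rab40b* reached 19.99 normalised counts in Creb3l1-shRNA1 replicate 5, against 8.56 to 11.4 in the other 4 libraries of that line. *Rab39* stood at 53.8 in non-targeting replicate 3, against 28.2 to 34.9. In Creb3l1-shRNA1 replicate 2, *Rab15* stood at 3667 (others 3437 to 3502) and *Rab1b* at 3404.5 (others 3117 to 3198). *Rab10* was lowest in Creb3l1-shRNA1 replicate 3, at 2925 (others 3009 to 3020), and *Rab6a* in non-targeting replicate 4, at 4143 (others 4319 to 4373). *Rab15* and *Rab10* kept their calls when these libraries were left out.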

How the results depend on the processing

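Of the 25 called members, 18 kept direction and call at an adjusted P under 0.01 in every alternative fit that could be run for them. The other 7 lost the call in at least 1 fit (*Rab11a*, *Rab11b*, *Rab21*, *Rab27b*, *Rab2b*, *Rab4a* and *Rab5c*), and none turned. These counts leave out the changed thresholds. With at least 1.5-fold asked as well, 7 members were called, 4 higher and 3 lower, and 11 regulators and effectors. Leaving out 1 library gave 20 to 26 called members, 12 to 13 higher and 7 to 14 lower, the 20 and the 7 without Creb3l1-shRNA replicate 3. It gave 37 to 43 regulators and effectors, and 11 to 13 of 20 pair ratios. Among the 11 pairs with at least 100 normalised counts each, 8 passed. DESeq2 called 24 members. With the replicate block 27 were called, *Rab28* and *Rab2a* added and none lost, and 48 regulators and effectors instead of 42. Offsets for GC content and length gave 27, of which 22 were shared with the 25 and *Rab18*, *Rab30*, *Rab39b*, *Rab3a* and *Rab40c* were added. The log2 fold change of *Chm* was -0.089 with these offsets and ranged from -0.026 to 0.12 with 1 library left out, and that of *Madd* was -0.0034 with the offsets. Why these turned was not tested. Below about 100 normalised counts, counting error limits what can be seen.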
